A study of Mus musculus with 4 samples.

Results

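A set of 6 genes named for the ribosome or for its assembly had anti-V5 Cut&Run peaks at their promoters in AID-Zfp574 mouse embryonic stem cells, and their peaks are described here. They are the ribosomal protein genes Rpl10, Rpl18 and Rps9, the like-named genes Rpl7l1 and Rps27l, which do not encode the standard ribosomal proteins of those numbers, and Wdr75, a ribosome biogenesis gene. The 6 genes were chosen from the measured peak lists, out of 134 genes with a peak of the merged list at the promoter, so the presence of a peak at each is a description and not a finding. Peaks were assigned to a gene by overlap with the 500 bp before and after any of its annotated transcription start sites (TSSs).

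Zfp574 is a zinc-finger protein, a class in which many members bind DNA. Cut&Run uses an antibody to bring a nuclease to chromatin, so that DNA close to the antibody's target is released and sequenced. The AID-Zfp574 cells (2 samples) carry an auxin-inducible degron (AID) and a V5 epitope at the N terminus of endogenous Zfp574, knocked into the OsTir1 parental line. The OsTir1 parental line (2 samples) has no V5 tag on Zfp574 and gives the background of the antibody. Both lines are diploid embryonic stem cells derived from the originally haploid AN3-12 cells, were grown without feeders in serum with LIF, and carry the same EF1a-driven transgene for OsTir1, the plant E3 ligase subunit that acts on the degron, linked to mCherry. The labels name no auxin treatment. The parental line is clonal and the tagged line came from genotyped clones, so differences between lines and differences from the tag cannot be told apart. Peak lists hold no expression values, so neither the cell type nor the expression of any gene was checked here.

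A ribosome has a small and a large subunit, each built from ribosomal RNA and ribosomal proteins, and a large set of assembly factors joins them in the nucleolus, the nucleus and the cytoplasm. Many ribosomal protein genes begin transcription at a cytosine followed by a run of pyrimidines, the oligopyrimidine start through which their mRNAs are regulated at translation. Rpl10 (uL16) joins the large subunit late in its assembly, near the peptidyl transferase centre. Rpl18 is a protein of the large subunit, and Rps9 (uS4) binds the small subunit early. Rpl7l1 resembles Rpl7 and is related to an assembly factor of the large subunit, Rps27l is a paralog of Rps27 known as a p53 target, and Wdr75 belongs to the small-subunit processome and is needed for transcription of ribosomal RNA.

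The sequences that hold the peaks and the short words described further on are printed first, in mm10 coordinates and in the direction of each gene. Capitals mark the 6-mers ATAGAG and CTAGAG on either strand, where they read CTCTAT and CTCTAG on the opposite strand. The Rpl10 stretch is chrX:74270582-74270811 (plus strand), from the start of the merged peak to the base before the first TSS, and is shown whole because both replicates found this peak.
Rpl10: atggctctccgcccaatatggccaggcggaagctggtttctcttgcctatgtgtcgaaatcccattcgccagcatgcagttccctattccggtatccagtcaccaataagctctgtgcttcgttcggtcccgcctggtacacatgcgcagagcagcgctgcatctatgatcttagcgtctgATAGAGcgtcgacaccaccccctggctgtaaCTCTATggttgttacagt
The Rps9 stretch is chr7:3703861-3703950 (plus strand), from the start of the peak nearer the TSS to just past its end, with CTAGAG inside that peak and ATAGAG 6 bp outside it.
Rps9: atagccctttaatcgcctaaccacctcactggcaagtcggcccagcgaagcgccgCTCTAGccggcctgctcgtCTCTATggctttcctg
For Rpl18, the bases around the summit are chr7:45717920-45717949 and the only 6-mer lies downstream, at chr7:45718017-45718046 (plus strand). They are shown because the 6-mer falls outside the peak.
Rpl18 summit: ctcggtttactcggtcctcccacataccat
Rpl18 downstream: cgccagttccggATAGAGtgtcccgcattg
For Rpl7l1, chr17:46782673-46782758 is the peak nearer the TSS up to the base before that TSS, and chr17:46782840-46782869 is a stretch of the gap between its peaks (minus strand). In the gap, overlapping letters give CTAGAG on both strands.
Rpl7l1 peak: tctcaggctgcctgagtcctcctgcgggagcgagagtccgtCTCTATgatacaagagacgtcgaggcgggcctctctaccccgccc
Rpl7l1 gap: cgggtgtcagaCTCTAGAGaccttagaagg
For Rps27l, both 6-mers of its strongest peak are at chr9:66946028-66946057 and chr9:66946076-66946105 (plus strand).
Rps27l first: tgagacgggagcCTAGAGcggtcgcccccg
Rps27l second: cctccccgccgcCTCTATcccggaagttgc
For Wdr75, chr1:45795393-45795422 (plus strand) holds both 6-mers of its stronger peak on the strand of the gene.
Wdr75: cgaccATAGAGtctccaggCTAGAGaggcc

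To ask how these promoters were covered, 3 peak lists were read: 1 for each AID-Zfp574 replicate and a merged list called on both. There were 140 peaks in the merged list, 80 in that of replicate 1 and 96 in that of replicate 2. Among protein-coding genes, 0.551% had a promoter peak in the merged list, 0.333% in replicate 1 and 0.369% in replicate 2. These are the background for the counts of members, which the choice of members fixes. All 6 members had a peak in the merged list and in replicate 2, and 3 of them (Rpl10, Rps27l and Wdr75) also in replicate 1. The merged list had 11 peaks at the 6 promoters, replicate 2 had 9 and replicate 1 had 4.

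Fold enrichment is the ratio of reads over the tagged line's summit to the parental background, with 1 added to each, as the authors' peak caller wrote it. The caller takes the higher of a local and a genome-wide background. At 3 of the 11 merged peaks of the members (the outer peaks of Rps27l and the downstream peak of Wdr75) the solved background was the lowest of the whole list, 0.552 reads. The number of reads at a summit was derived from the deposited ratio and p-value, and its exact 95% Poisson interval covers counting error only. The libraries were shallow at peaks. The replicates had solved totals of 10.2 M and 10.5 M reads (M, mega), the merged list had 20.6 M, and merged summits held 8 to 20 reads. At the members the merged summits held 9 to 15 reads, so the intervals of all 11 peaks overlapped and their order by reads was within counting error.

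**Figure D1:**
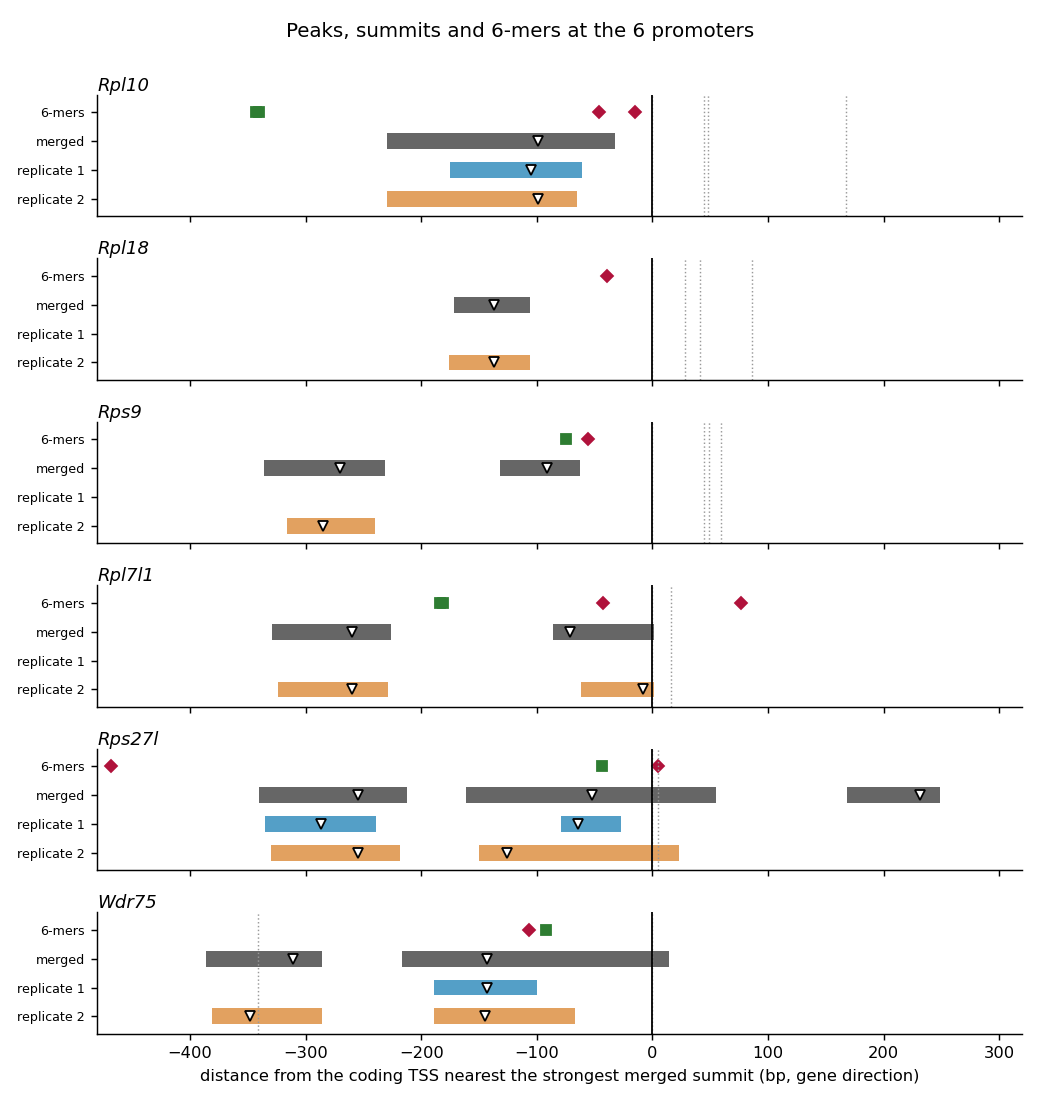
Peaks at the 6 promoters. The x axis is the distance in bp, in the direction of the gene, from the coding TSS (black line at 0) nearest the strongest merged summit, and dotted lines are other coding TSSs. Bars are peaks of the merged list and of each replicate, triangles are summits, red diamonds are ATAGAG and green squares CTAGAG. Replicate 1 has bars at Rpl10, Rps27l and Wdr75 alone.

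The map of peaks shows 4 promoters (Rps9, Rpl7l1, Rps27l and Wdr75) with more than 1 merged peak, and Rpl10 and Rpl18 with a single peak. Over all 134 genes with a merged promoter peak, 33 (24.6%) had 2 or more. Among the members, only Rps27l had more than 1 peak that both replicates found. Of the 11 summits, 10 lay upstream of the nearest TSS and 1 downstream, at a median distance of 91 bp. The count takes noncoding TSSs too: the most downstream Rps27l summit lay 38 bp before a noncoding TSS but 226 bp past the nearest coding TSS. By GENCODE annotation, 5 summits lay outside transcripts, 3 in introns, 3 in UTRs and 0 in coding sequence. The strongest Rps27l summit, outside transcripts in GENCODE, lies in a stretch (chr9:66946028-66946057) that is exon in RefSeq.

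Among the ribosomal protein genes, Rpl10 had the peak that both replicates found. At chrX:74270582-74270779 (198 bp) its fold enrichment was 9.32 in the merged list, rank 24 of 140, with 15 reads (interval 8.40 to 24.7). The fold enrichment was 7.30 in replicate 1 with 9 reads and 8.06 in replicate 2 with 10 reads, a mean of 7.68 ± 0.536 (SD, n = 2). The merged value was above both replicates. The summit lay 99 bp upstream of the TSS in the merged list and in replicate 2, and 105 bp upstream in replicate 1, outside any transcript.

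Rpl18 had a narrow peak of 66 bp at chr7:45717899-45717964, and the replicates differed there. Its merged fold enrichment was 9.29 with 15 reads, rank 25 of 140. In replicate 2 it was 10.97, rank 4 of 96, with 14 reads (interval 7.65 to 23.5), at the same summit 137 bp upstream of the TSS. Replicate 1 had no peak there. Among the 10 replicate 2 peaks of highest fold enrichment, 3 had no overlapping peak in replicate 1. The window is shared with Sphk2, a sphingosine kinase gene transcribed from the opposite strand, and the summit lay in the UTR of transcripts of both genes, so the peak cannot be given to either gene alone.

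Rps9 had 2 merged peaks, at chr7:3703657-3703761 and chr7:3703861-3703929, separated by 99 bp. The upstream peak had a fold enrichment of 7.53 and the peak nearer the TSS 6.52. Both held 13 reads, and the solved background was 0.860 reads at the first and 1.15 reads at the second. Their summits were 270 bp and 91 bp upstream of the TSS. Replicate 2 found the upstream peak alone, with a fold enrichment of 7.65 and 10 reads, replicate 1 found neither, and the peak nearer the TSS was therefore found only after the replicates were combined.

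**Figure D2:**
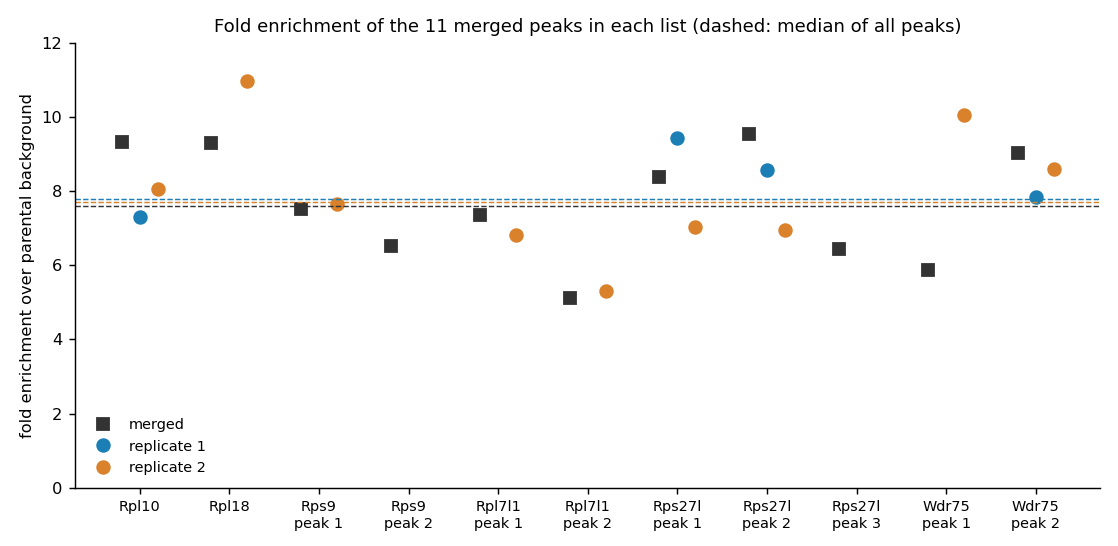
Fold enrichment over the parental background (y axis, linear, from 0) of each of the 11 merged peaks (x axis), numbered from upstream to downstream within a gene. Squares are the merged list and circles the replicates, a missing circle means no overlapping peak in that replicate, and dashed lines are the medians of all peaks of each list. Replicate 1 has a value for 4 of the 11 peaks.

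Of the like-named genes, Rpl7l1 had peaks in replicate 2 alone and Rps27l in both replicates. Rpl7l1 had 2 merged peaks, at chr17:46782899-46783001 and chr17:46782672-46782758, with a gap of 140 bp. Their fold enrichments were 7.36 and 5.12, with 11 and 10 reads, and the second ranked 135 of 140. Replicate 2 found both, with fold enrichments of 6.81 and 5.30 and 8 and 6 reads, and replicate 1 found neither. The upstream summit was at the same base in both lists, 260 bp before the TSS, whereas the other lay 71 bp before it in the merged list and 8 bp in replicate 2. Both peaks also lie in the overlapping noncoding gene Gm26904.

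Rps27l had 3 merged peaks, the most of the 6 promoters, and 2 of them were found in both replicates. The peak at chr9:66945746-66945873 had a merged fold enrichment of 8.38, against 9.42 in replicate 1 and 7.03 in replicate 2 (mean 8.22 ± 1.69, SD, n = 2). The peak at chr9:66945925-66946140 had the highest merged fold enrichment of the 6 genes, 9.53, against 8.57 and 6.95 in the replicates (mean 7.76 ± 1.14, SD, n = 2). Replicate 1 was the higher at both. The replicate summits were 32 bp apart in the first peak and 62 bp apart in the second. The peak at chr9:66946254-66946334, in an intron, had a fold enrichment of 6.44 with 9 reads and was in neither replicate.

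Wdr75 had 2 merged peaks with a gap of 69 bp, together chr1:45795121-45795520. The downstream peak, chr1:45795290-45795520, had a fold enrichment of 9.02 and was found in both replicates, at 7.85 in replicate 1 and 8.59 in replicate 2 (mean 8.22 ± 0.520, SD, n = 2), with summits 2 bp apart. Its summit lay 143 bp before a coding TSS, within the 5′ UTR of the longest transcript. The peak at chr1:45795121-45795220 had a fold enrichment of 5.88 in the merged list and 10.06 in replicate 2, rank 8 of 96, and was not in replicate 1. Its merged summit, 30 bp past the upstream TSS of the longest transcript, was the only member summit downstream of its nearest TSS. It held 15 reads in the merged list and 12 in replicate 2, while the solved background was higher in the merged list (1.72 reads) than in replicate 2 (0.292 reads).

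**Figure D3:**
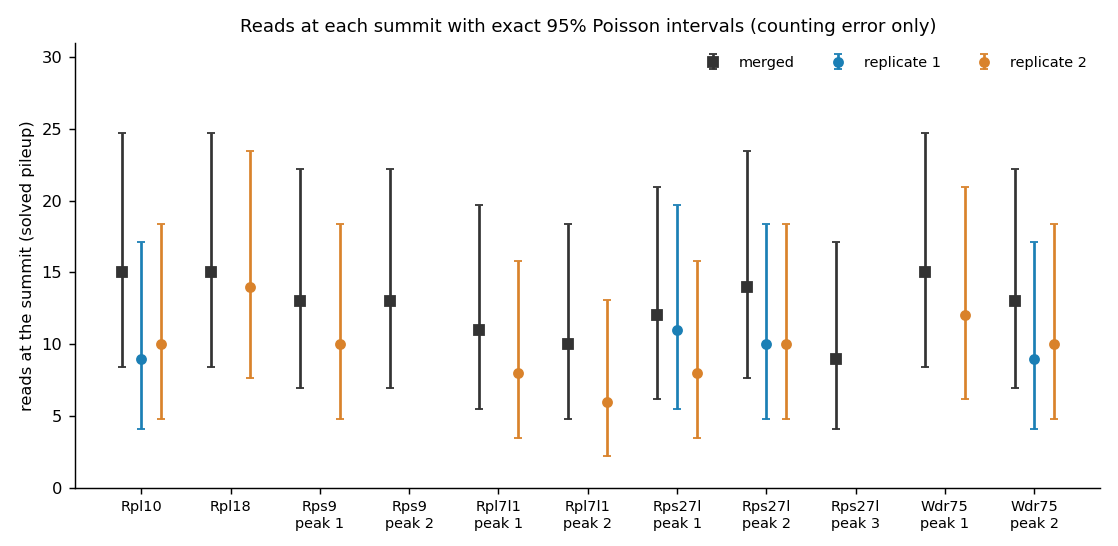
Reads at each summit (y axis, linear, from 0) for the same 11 peaks (x axis) with exact 95% Poisson intervals, which cover counting error only. Within every peak found in more than 1 list the intervals overlap.

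The plot of reads shows that replicate reads did not add up to merged reads. In the 4 peaks found in both replicates, merged reads were 15 of a replicate sum of 19 at Rpl10, 12 of 19 and 14 of 20 at Rps27l, and 13 of 19 at Wdr75. The merged summit lay 6 bp and 0 bp from the summits of replicates 1 and 2 at Rpl10, and 0 bp and 2 bp at Wdr75. At Rps27l it lay 32 bp and 0 bp from them in the first peak, and 12 bp and 74 bp in the second. Why merged reads fell below the replicate sum was not tested. The merged fold enrichments of the members rest on these merged reads and on a background of few parental reads. The solved background was 0.573 reads at the strongest Rps27l peak, 1.15 reads at the Rps9 and Rpl7l1 peaks nearer the TSS and 1.72 reads at the upstream Wdr75 peak.

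Of the 11 merged peaks, 4 were found in both replicates (36.4%), 5 only in replicate 2 and 2 in neither, and none was only in replicate 1. Over all 140 merged peaks, both replicates found 54 (38.6%), replicate 2 alone found another 34, replicate 1 alone 18, and the last 34 were in neither. The median fold enrichment of the 11 peaks was 7.53, and that of the strongest peak of each member was 9.16. For comparison, the median over all merged peaks was 7.61, and the strongest peak per gene had a median of 7.73 over the 134 genes. The second measure favours genes with more than 1 peak, here 4 of the 6 members and 33 of the 134 genes. In the replicate lists, the strongest peak of each member had a median of 7.85 (replicate 1) and 7.86 (replicate 2). The medians over all peaks of those lists were 7.78 and 7.71.

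The wider gene families were then counted, beside the 0.551% of all protein-coding genes that had a promoter peak in the merged list. Of 80 genes for cytosolic ribosomal proteins, 3 had a promoter peak in the merged list (3.75%), 1 in replicate 1 and 3 in replicate 2, and these were the 3 members. Of 7 annotated ribosomal protein-like genes, 2 had a merged peak, Rpl7l1 and Rps27l, and neither Rpl7 nor Rps27 had a peak in any list. The unbound ribosomal protein gene nearest a merged summit was Rpl14, at 3706 bp. Of 300 annotated ribosomal protein pseudogenes (genes with a -ps symbol), 0 had a merged peak, although reads that map to more than 1 place were discarded.

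Of 115 ribosome biogenesis genes, 4 had a merged peak (3.48%, again beside 0.551% of all protein-coding genes). They were 1 of 49 small-subunit factors (Wdr75), 2 of 44 large-subunit factors (Nip7 and Brix1) and 1 of 22 genes of RNA polymerase I and the nucleolus (Znrd1). Nip7 and Brix1 act in the assembly of the large subunit, and Znrd1 encodes a subunit of RNA polymerase I. The fold enrichment was 5.83 at Nip7 with 9 reads, 6.63 at Brix1 with 10 reads and 6.13 at Znrd1 with 9 reads. Replicate 1 had a peak at Nip7 (5.16, 6 reads), and neither replicate had one at Brix1 or Znrd1. All 3 windows are shared with a neighbouring gene, Cog8, Rad1 and Znrd1as respectively.

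Sequence was then compared at the members. ATAGAG and CTAGAG were picked earlier on these same merged summits, the members' included, so their presence is a description. Either 6-mer, on either strand, lay whole within 150 bp of the strongest merged summit at 5 of 6 members (95% Wilson interval 43.6 to 97.0%). Over all 11 merged summits of the members the share was 63.6%, beside 70.7% over all 140 merged summits. It was 20.6% over windows of the same length on 21853 protein-coding TSSs, and 22.1% over the TSSs of the 77 ribosomal protein genes with no merged peak. Rps9 was the exception, since its 6-mers lay at its other peak, 14 bp and 33 bp from that summit.

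**Figure D4:**
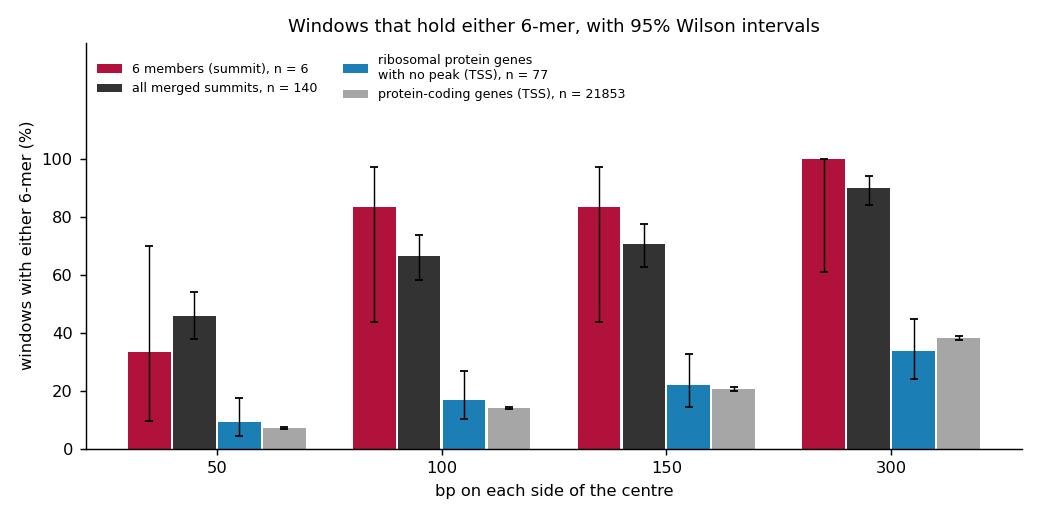
Share of windows with ATAGAG or CTAGAG (y axis, %, from 0) against the bp on each side of the centre (x axis), with 95% Wilson intervals. Bars are the 6 members at their strongest merged summit, all 140 merged summits, the TSSs of 77 ribosomal protein genes with no peak and 21853 protein-coding TSSs. At 50 bp 2 of 6 members hold a whole 6-mer, and at 300 bp all 6 do.

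The plot of 6-mer shares shows wide intervals for the members at every window. Inside a merged peak, a 6-mer was found at 5 members and in 5 of their 11 peaks, against 76 of 140 merged peaks (54.3%). The placement differed between members. At Rpl10, ATAGAG lay 50 bp from the summit inside the peak and, on the opposite strand, again 81 bp from it outside the peak. At Rpl18 the 6-mer lay 95 bp downstream of the summit, 65 bp outside the narrow peak. At Rps27l, CTAGAG lay 6 bp from the summit of the strongest merged peak and ATAGAG 54 bp from it on the other strand. In each replicate the upstream Rps27l peak had the higher fold enrichment instead (9.42 against 8.57, and 7.03 against 6.95). No 6-mer lay within 150 bp of that peak's merged summit. At Wdr75, ATAGAG and CTAGAG lay 34 bp and 48 bp from the summit of the strongest merged peak, on the same strand, with starts 14 bp apart. The upstream Wdr75 peak had the higher fold enrichment in replicate 2 (10.06 against 8.59). Its merged summit had no 6-mer within 150 bp either. The count of 5 of 6 members therefore rests on the merged order at both genes. The Rps9 pair, both on the opposite strand, started 19 bp apart.

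The start sites of the ribosomal protein genes also differed. An oligopyrimidine start, taken as C followed by 4 pyrimidines at an annotated coding TSS, was present at Rpl10 and Rps9 and not at Rpl18, Rpl7l1, Rps27l or Wdr75. It was present at 24 of 80 ribosomal protein genes, at 13 of 120 protein-coding genes with a merged peak and at 5.13% of protein-coding genes. When 5 bp of error in the TSS was allowed, every member but Rpl7l1 had such a start, as did 33.0% of protein-coding genes, 56.3% of the 80 ribosomal protein genes and 50.8% of 120 protein-coding genes with a merged peak. TATAA on the gene's strand in the 50 bp before a coding TSS was also found at Rpl10 and Rps9 (8.79% of protein-coding genes, 8 of 80 ribosomal protein genes and 6 of the 120 with a merged peak). AAGATGG, searched on both strands from 250 bp before to 50 bp after a coding TSS, was found at Rpl18, Rpl7l1 and Wdr75. Its share was 11.4% of protein-coding genes and 22.5% both of ribosomal protein genes and of genes with a merged peak. CCGGAAG, searched in the same way, was found at Rps27l alone of the 6. Its share was 14.8% of protein-coding genes, 38.8% of ribosomal protein genes and 41.7% of genes with a merged peak.

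For the members with peaks in both replicates, the promoter peak of another gene with the closest pair of replicate fold enrichments was sought, over 2 samples. For Rpl10 it was a peak shared by BC055324 and Mettl18, with 7.01 in replicate 1 and 7.81 in replicate 2. For Rps27l it was a peak shared by Gys1 and Ruvbl2, with 8.25 and 6.68. For Wdr75 it was another peak shared by BC055324 and Mettl18, with 7.85 and 8.59, the same values as Wdr75 itself. The cause of this tie was not tested.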

How the data were processed

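Anti-V5 Cut&Run was made in 2 AID-Zfp574 and 2 OsTir1 parental samples, which the labels number as replicates and the methods call biological replicates. The authors mapped single-end reads of 50 bp to mm10 with Bowtie 0.12.9 (unique positions, up to 3 mismatches) and called peaks with MACS2 2.1.2.1 against the parental line (settings as stated: BEDPE input, 300 bp extension), for each replicate and for both combined. Build and versions are those of the submitters' processing notes. The deposited lists give a fold enrichment (a ratio with pseudocount 1), a −log10 p-value, a −log10 q-value and a score for each peak, and the deposited summit offset in bp. The score was not interpreted. The parental line had no list of its own among those used here.

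Peaks were joined to all GENCODE M21 TSSs (GRCm38, the assembly of mm10) at 500 bp with at least 1 shared bp, checked against bedtools 2.31.1. Treatment reads and background at each summit were solved from fold enrichment and −log10 p (Poisson upper tail). All pileups lay within 0.05 of a whole number, and totals rest on a fragment of 50 bp and the caller's mouse genome size. The steps were tested on simulated data. Sequences came from the RefSeq GRCm38.p6 genome through samtools 1.23.1, with Python 3.11.15, scipy 1.17.1 and statsmodels 0.14.6. Members, gene lists and 6-mers were chosen with earlier results of these data known, and no test was run on them. Named genes were the members, genes sharing their windows, Rpl7 and Rps27, other listed genes with a peak, the nearest unbound ribosomal protein gene and the most alike peaks. An unbound gene may lie below the caller's threshold. Alternatives were other windows, stricter peaks, other TSS choices, pseudocount 0 and each replicate alone.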

Additional observations from a re-analysis of the deposited data

How the results depend on the processing

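All 6 members kept a merged peak at windows of 250 and 1000 bp, with coding transcripts alone and at a −log10 q or a fold enrichment of at least 5, and 5 did at 100 bp. Taking 1 replicate's list in place of the merged list gave 3 to 6 members, 1 to 3 ribosomal protein genes and 1 to 2 biogenesis genes (4 merged), with 3, 1 and 2 in replicate 1. At a −log10 q of at least 5, 1 member was left with peaks in both replicates (3 without that limit) and 1 biogenesis gene. The median fold enrichment of the strongest peaks, 9.16, was 7.53 over all member peaks and 7.85 to 7.86 in the replicate lists. Either 6-mer lay whole within 50 bp of the strongest merged summit at 2 members, and the Rpl10 6-mer that begins at 50 bp was not counted. Either was present at 6 members when any merged summit of a member was allowed, a choice made after seeing the data. Against the outermost TSS, the summit lay downstream, by 2477 bp at Rpl18 and 198 bp at Wdr75, since each has an upstream start site. Of 36 alternatives for single genes, 20 moved less than the spread between replicates, the counting interval or 50 bp, 14 moved more and these 2 changed direction. With pseudocount 0 the solved reads came to 19.2 to 23.9 in place of 11 to 15. No paired analysis was made, since no test compared groups and the lists hold no values for each parental sample. The methods state that each list was called against its respective input, and which parental sample entered which list is not given in the sources used here. Summits of 6 to 15 reads limit every order among members.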
